A study of Mus musculus with 16 samples.

Results

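Nuclear receptors such as oestrogen receptor alpha switch genes on or off through partner proteins. Coactivators of the p160 family (Ncoa1, Ncoa2 and Ncoa3) bind the receptor when its hormone is bound and bring in histone acetyltransferases. The NCoR corepressor complex does the opposite: Ncor1 is its scaffold, Hdac3 its histone deacetylase, and Tbl1x, Tbl1xr1 and Gps2 are core subunits. Nrip1, also called RIP140, binds hormone-loaded receptors and mostly represses. In liver this machinery serves receptors that set lipid, bile acid and clock gene programmes, and loss of Hdac3 or Ncor1 from mouse hepatocytes is known to raise lipid synthesis genes.

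These 9 genes were taken by symbol from a table of 35502 genes, and all 9 passed the filter on low counts that left 13379 genes for testing. They were chosen by function, but the set was also selected on measured values of these libraries: Tbl1xr1 had the smallest p-value of all genes between control stages, and its knockout differences ran in opposite directions at the 2 stages. Its values in these comparisons are therefore a description, and nothing is read from tests of them.

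The data are liver RNA counts from 16 mice, 1 library per mouse, in 4 groups of 4, sexually mature or immature by their labels. Mature LERKO and immature LERKO mice carried Cre and lacked oestrogen receptor alpha (gene Esr1) in the liver by design; mature control and immature control mice were floxed animals without Cre. The sources used here do not give the strain, sex or age of the mice, the promoter that drives Cre, or whether the stage label refers to the knockout or to tissue collection. Levels are CPM, the counts of a gene scaled to a common library size with TMM factors, and tests are edgeR's quasi-likelihood test with Benjamini-Hochberg adjustment over the 13379 genes.

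The libraries held 18123975 to 23213906 counts in total, and the members held 192 to 3391 counts each. Esr1 stood at 16.3 ± 2.19 CPM in mature LERKO and 82.2 ± 19.1 CPM in mature control livers, and at 13 ± 2.19 CPM in immature LERKO and 73.6 ± 15.8 CPM in immature control livers (SD, n = 4 each), and within each stage its LERKO and control libraries did not overlap. All 10 hepatocyte markers were abundant in every group, with no marker averaging below 656 CPM. Some libraries stood apart. Library 4 of mature LERKO held 19000 CPM of the acute phase gene Saa1, against 15.2 to 113 CPM in the 15 other libraries, and had the lowest scaling factor, 0.852 in a range up to 1.07. The summed level of 17 skeletal muscle markers was 13.5 to 24.9 CPM in mature LERKO, 20.8 to 1030 CPM in mature control, 10.7 to 220 CPM in immature LERKO and 8 to 18.4 CPM in immature control livers. Mature control libraries 1 and 2 and immature LERKO library 4 held most of it, at 1030, 419 and 220 CPM.

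Upstream sequence is shown for Tbl1xr1, whose libraries did not overlap in either knockout comparison or between control stages, and for Nrip1, which is known as an oestrogen-induced gene in human breast cancer cells. Both stretches are the 250 bases before the gene start in RefSeq on GRCm38.p6, written 5′ to 3′ on the gene's own strand. Tbl1xr1 is on the forward strand (chr3:22076402-22076651) and Nrip1 on the reverse strand (chr16:76373828-76374077). Capitals mark the matches, on either strand, to 4 short motifs: GGTCA, which is 1 arm of an oestrogen response element, the GC box GGGCGG, the CCAAT box and the TATA box TATAAA.
Tbl1xr1: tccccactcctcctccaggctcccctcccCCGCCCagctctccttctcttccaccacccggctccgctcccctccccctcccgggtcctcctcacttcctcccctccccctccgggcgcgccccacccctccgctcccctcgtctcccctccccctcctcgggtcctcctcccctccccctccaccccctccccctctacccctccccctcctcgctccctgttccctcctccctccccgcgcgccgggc
Nrip1: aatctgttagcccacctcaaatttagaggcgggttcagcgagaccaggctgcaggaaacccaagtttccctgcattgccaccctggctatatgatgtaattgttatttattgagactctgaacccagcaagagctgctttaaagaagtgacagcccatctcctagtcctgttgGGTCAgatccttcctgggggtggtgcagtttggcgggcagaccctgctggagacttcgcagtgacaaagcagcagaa

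The Tbl1xr1 stretch was 76% G or C and held 1 GC box and none of the other motifs. The Nrip1 stretch was 51.2% G or C and held 1 GGTCA arm, starting 77 bases before the gene start, and none of the other motifs. Among 32817 RefSeq upstream stretches of the same length, 35.2% held a GGTCA arm, 32.7% a GC box, 33.8% a CCAAT box and 12.4% a TATA box. The full element, GGTCA and TGACC with 3 bases of any kind between them, contains the arm; it was in neither stretch and in 0.064% of all. A match is a run of letters only, and receptor binding was not measured here.

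Ncor1, the scaffold, had most counts of the members, and levels of different genes are compared here per kilobase of summed exon. Over the 16 libraries Gps2 averaged 9.05 ± 0.816 CPM per kilobase and Ncor1 8.88 ± 1.16 (SD, n = 16). Hdac3 followed at 6.86 ± 0.779, Tbl1x at 6.33 ± 0.579 and Tbl1xr1 at 4.12 ± 0.765 CPM per kilobase. The coactivators came after the corepressor subunits, with Ncoa3 at 3.4 ± 0.545, Ncoa2 at 3.19 ± 0.472 and Ncoa1 at 2.17 ± 0.195 CPM per kilobase, and Nrip1 was last at 1.58 ± 0.281 CPM per kilobase. Some neighbours in this order were not separated: Gps2 was above Ncor1 in 7 of 16 libraries, Ncor1 above Hdac3 in 14, Hdac3 above Tbl1x in 12, Tbl1xr1 above Ncoa3 in 11 and Ncoa3 above Ncoa2 in 12. Tbl1x was above Tbl1xr1, Ncoa2 above Ncoa1 and Ncoa1 above Nrip1 in all 16 libraries. Exon lengths are those of all annotated transcripts together, and which transcripts the liver uses was not measured here.

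**Figure D1:**
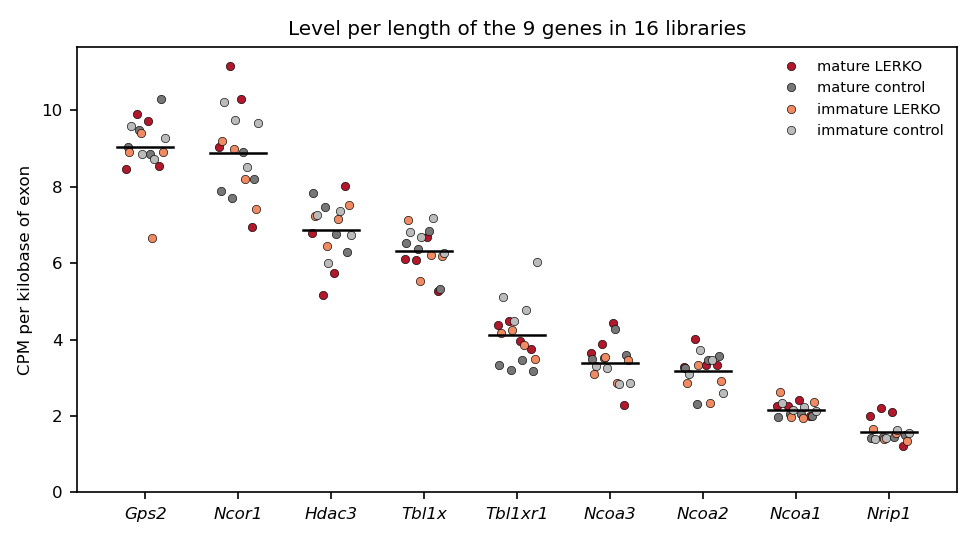
Level of each gene in CPM per kilobase of summed exon length (y axis); each point is 1 of 16 libraries, coloured by group, and the line is the mean over all. The 5 subunits of the corepressor complex lie above the 3 coactivators on average, and Nrip1, at 1.58 CPM per kilobase, is the lowest.

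Summed per kilobase, the 5 corepressor complex genes stood at 35.2 ± 1.97 in mature LERKO, 34.3 ± 0.644 in mature control, 34.2 ± 1.91 in immature LERKO and 37.3 ± 1.46 CPM per kilobase in immature control livers (SD, n = 4 each). The 3 coactivators summed to 9.3 ± 1.21, 8.9 ± 0.79, 8.33 ± 0.789 and 8.51 ± 0.646 CPM per kilobase in the same order of groups. The corepressor sum was 3.58 to 4.48 times the coactivator sum in LERKO libraries and 3.56 to 4.98 times in control libraries. It includes Tbl1xr1, which was chosen for these contrasts, so differences of the sum between groups are a description. The sums hold 5 and 3 genes, so the size of their ratio also depends on how many genes were listed.

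Tbl1xr1 (ENSMUSG00000027630) is a subunit that recruits the ubiquitin machinery needed to exchange corepressor for coactivator, and it lies on chromosome 3 from 22076652 to 22216594, forward strand, GRCm38. It held 39.1, 39.9, 35.2 and 33.4 CPM in mature LERKO libraries, against 29.7, 28.5, 30.9 and 28.4 CPM in mature control libraries. It held 37.1, 37.9, 34.4 and 31 CPM in immature LERKO libraries, against 45.6, 40, 42.4 and 53.6 CPM in immature control libraries. Every mature LERKO library was thus above every mature control library, and every immature LERKO library was below every immature control library. The order of the group means was immature control at 45.4 ± 5.91, mature LERKO at 36.9 ± 3.11, immature LERKO at 35.1 ± 3.09 and mature control at 29.4 ± 1.18 CPM (SD, n = 4 each). The 2 LERKO groups overlapped, and the 2 control groups did not.

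The log2 fold changes of Tbl1xr1 are given as a description. It stood at 0.33 (SE 0.10) for mature LERKO against mature control and at -0.37 (SE 0.10) for immature LERKO against immature control. For mature against immature stage it stood at -0.63 (SE 0.10) in controls and at 0.07 (SE 0.10) in LERKO, and the difference of the 2 knockout values was 0.70 (SE 0.14). These values share libraries: the control groups enter both the stage and the knockout comparisons. With each library left out in turn, the control stage value ran from -0.69 to -0.54, the mature knockout value from 0.29 to 0.41 and the immature one from -0.43 to -0.28. Immature control library 4, with 53.6 CPM, was the highest of all, and the smaller stage and immature values are those without it. Without the 3 libraries with most muscle transcripts the stage value in controls was -0.62, the mature knockout value 0.32 and the immature one -0.31.

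Summed markers of other cell types were not tested between groups, nor was their part in the Tbl1xr1 levels. The 10 endothelial markers summed to 118 to 303 CPM in mature LERKO, 270 to 381 CPM in mature control, 175 to 358 CPM in immature LERKO and 176 to 268 CPM in immature control livers. The 10 stellate cell markers summed to 100 to 374, 398 to 515, 238 to 461 and 244 to 328 CPM in the same order, the 10 Kupffer and myeloid markers to 243 to 422, 303 to 409, 203 to 276 and 144 to 294 CPM, and the 8 cholangiocyte markers to 28.8 to 57, 31.7 to 40.9, 34.7 to 52.5 and 35.3 to 39.2 CPM. Stellate sums did not overlap between mature LERKO and mature control livers, and stellate, endothelial and Kupffer sums did not overlap between mature and immature controls. The other knockout pairs, and the cholangiocyte sums in every comparison, overlapped. No marker of these 4 lists was at 0 in every library. In bulk liver, fewer cells of a type and less RNA per cell cannot be told apart.

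Tbl1x (ENSMUSG00000025246, chromosome X from 77511013 to 77662983, forward strand), the X-linked paralogue of Tbl1xr1 and a subunit with the same place in the complex, did not separate the groups. It held 43, 42.9, 47.2 and 37.1 CPM in mature LERKO libraries, 46, 45, 48.2 and 37.6 CPM in mature control libraries, 50.2, 39.1, 43.8 and 43.7 CPM in immature LERKO libraries and 48.1, 47.1, 50.6 and 44.2 CPM in immature control libraries. The groups overlapped in both knockout and both stage comparisons. Its log2 fold change was -0.05 (SE 0.10, adjusted p = 0.937, edgeR) for mature LERKO against mature control and -0.10 (SE 0.10, adjusted p = 1, edgeR) for immature LERKO against immature control. The 2 paralogues shared no stretch of 50 identical bases in GENCODE vM21 transcripts, so reads of that length or longer without mismatch could be assigned to 1 of them.

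The ratio of Tbl1xr1 to Tbl1x counts does not depend on library scaling. It was 0.91, 0.93, 0.747 and 0.901 in mature LERKO libraries, against 0.645, 0.634, 0.642 and 0.755 in mature control libraries. It was 0.738, 0.969, 0.784 and 0.71 in immature LERKO libraries, against 0.948, 0.85, 0.838 and 1.21 in immature control libraries. Here the groups were less separated than for Tbl1xr1 alone: mature LERKO library 3 lay just below mature control library 4, and immature LERKO library 2 lay within the range of immature controls. Control livers of the 2 stages did not overlap, at 0.669 ± 0.0575 in mature and 0.962 ± 0.174 in immature controls (SD, n = 4 each). The numerator is Tbl1xr1, which was chosen for these contrasts, so the ratio is a description too and adds no separate support. Only in immature control library 4 did Tbl1xr1 have more counts than Tbl1x.

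**Figure D2:**
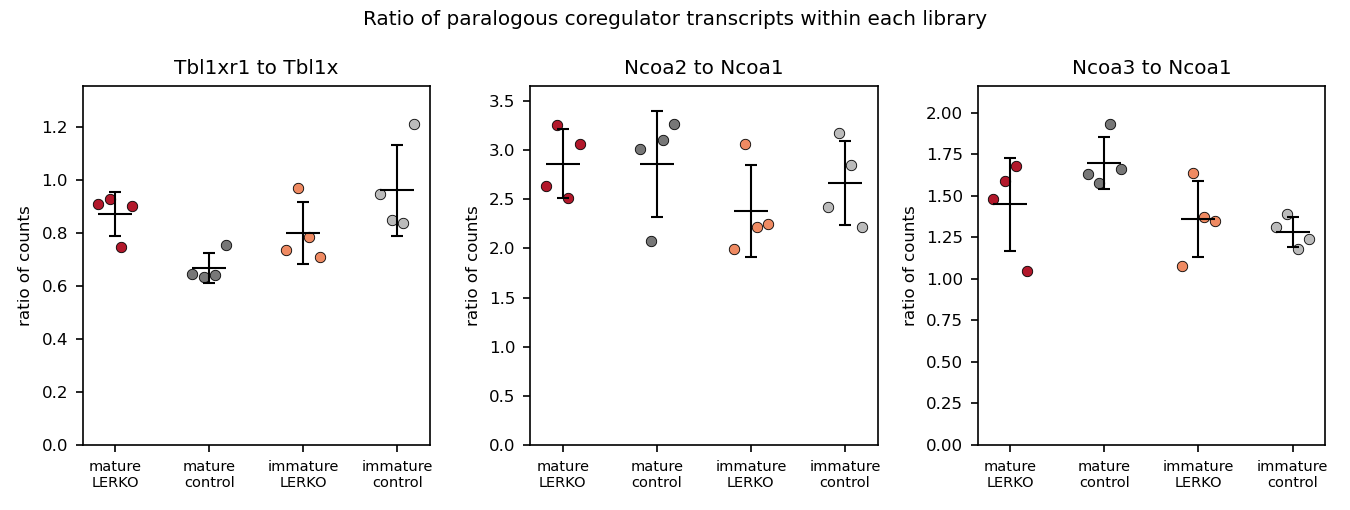
Ratio of counts of 2 paralogues within each library (y axis, no unit) by group; points are libraries, the horizontal bar is the mean and the whisker the SD (n = 4). Tbl1xr1 to Tbl1x is lowest in mature control livers (mean 0.669), a description because Tbl1xr1 was chosen for these contrasts. Ncoa3 to Ncoa1 is higher in every mature control library than in every immature control library.

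Ncor1 (ENSMUSG00000018501, chromosome 11 from 62316426 to 62458541, reverse strand) had means in the same order as Tbl1xr1 over all 4 groups. Its groups overlapped in both knockout and both stage comparisons. It held 116, 143, 132 and 88.9 CPM in mature LERKO libraries, against 101, 98.7, 114 and 105 CPM in mature control libraries. It held 118, 115, 105 and 95 CPM in immature LERKO libraries, against 131, 125, 109 and 124 CPM in immature control libraries. The log2 fold change was 0.20 (95% interval -0.07 to 0.47) in the mature and -0.17 (-0.44 to 0.09) in the immature knockout comparison, with adjusted p-values of 0.741 and 1 (edgeR), and the difference of the 2 was 0.37 (SE 0.18, adjusted p = 0.774, edgeR). The lowest mature LERKO value was that of library 4, and the highest that of library 2. The mature log2 fold change was 0.10 without library 2. Without library 4 it was 0.35 (adjusted p = 0.542, edgeR) and the difference 0.51 (adjusted p = 0.591, edgeR). In the control stages Ncor1 stood at -0.22 (SE 0.13, adjusted p = 0.622, edgeR). Ncor1 shares 82 exonic bases with Pigl on the opposite strand.

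Hdac3 (ENSMUSG00000024454, chromosome 18 from 37935844 to 37955016, reverse strand), the deacetylase, stood at 26.1 ± 5.04 CPM in mature LERKO, 28.8 ± 2.83 CPM in mature control, 28.7 ± 1.84 CPM in immature LERKO and 27.7 ± 2.56 CPM in immature control livers (SD, n = 4 each). Its highest value, 32.5 CPM, was in library 4 of mature LERKO and its lowest, 21 CPM, in library 2 of the same group. Its log2 fold change was -0.14 (95% interval -0.40 to 0.12) in the mature and 0.05 (-0.21 to 0.31) in the immature knockout comparison, and neither passed (adjusted p = 0.813 and 1, edgeR). The mature value was -0.24 without library 4 of mature LERKO and -0.05 without library 2. Gps2 (ENSMUSG00000023170, chromosome 11 from 69913888 to 69916591, forward strand), the small subunit that also restrains inflammatory signalling, stood at 14.7 ± 1.22 CPM in mature LERKO and 15.1 ± 1.05 CPM in mature control livers, and at 13.6 ± 1.97 CPM in immature LERKO and 14.6 ± 0.656 CPM in immature control livers (SD, n = 4 each). Its log2 fold changes, -0.04 in mature and -0.11 in immature mice, did not pass either (adjusted p = 0.965 and 1, edgeR). Of its 50-base stretches 2.75% also occur in the predicted gene Gm5221.

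**Figure D3:**
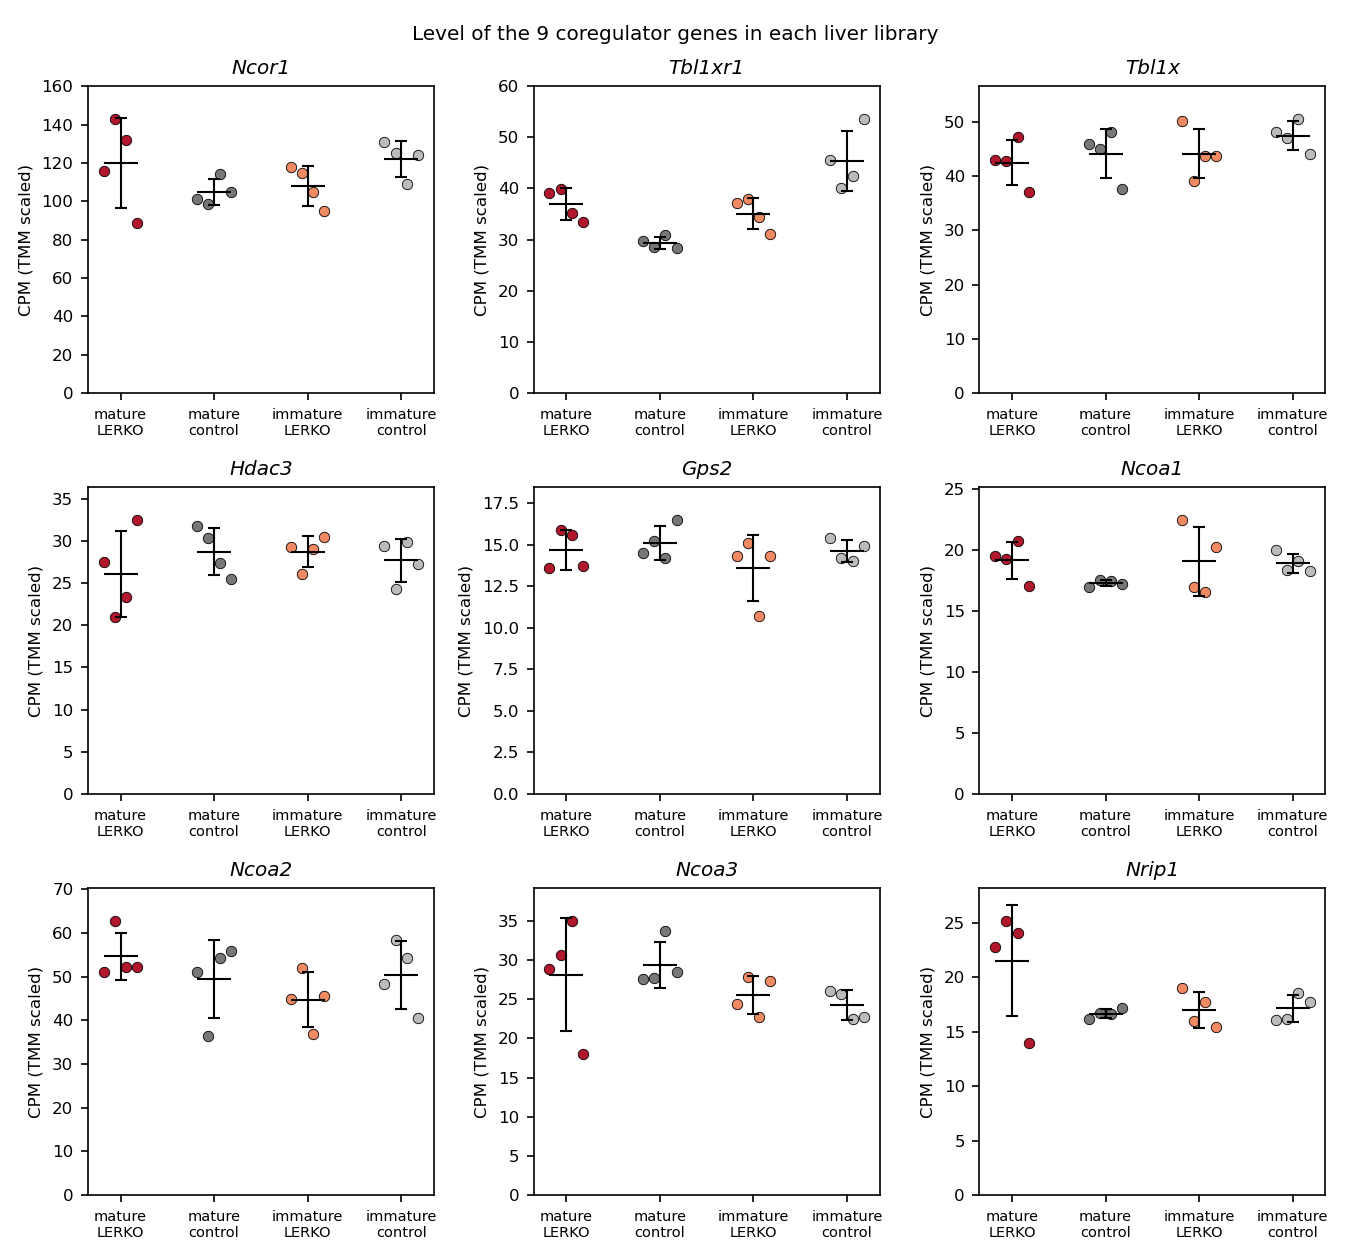
TMM-scaled CPM (y axes, each from 0) of the 9 genes by group; points are libraries in the order of their replicate numbers, the horizontal bar is the mean and the whisker the SD (n = 4). Tbl1xr1 is the gene whose control groups and both knockout pairs do not overlap, and Nrip1 is at 22.8 to 25.2 CPM in 3 mature LERKO libraries and at 14 CPM in the other.

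Among the coactivators, Ncoa1 (ENSMUSG00000020647, chromosome 12 from 4247362 to 4477182, reverse strand), also called SRC-1, varied least among control libraries, with coefficients of variation of 1.71% in mature and 3.95% in immature controls. Each coefficient rests on 4 libraries, with 334 to 408 counts each in mature and 323 to 385 in immature controls. Values this small are therefore uncertain. Ncoa1 held 17, 17.6, 17.5 and 17.2 CPM in mature control libraries and 20, 18.4, 19.1 and 18.3 CPM in immature control libraries, so that the 2 groups did not overlap. The log2 fold change was -0.13 (SE 0.10) and did not pass (adjusted p = 0.723, edgeR). LERKO livers spread wider, at 19.5, 19.3, 20.8 and 17.1 CPM in mature and 22.5, 17, 16.6 and 20.3 CPM in immature libraries. Its log2 fold change was 0.15 (95% interval -0.06 to 0.35) in mature and 0.01 (-0.19 to 0.22) in immature LERKO against control, with adjusted p-values of 0.742 and 1 (edgeR).

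Ncoa2 (ENSMUSG00000005886, chromosome 1 from 13139105 to 13374083, reverse strand), also called GRIP1 or SRC-2, held 51.2, 62.8, 52.3 and 52.3 CPM in mature LERKO libraries, against 51.1, 36.4, 54.2 and 56 CPM in mature control libraries. It held 44.8, 52, 36.8 and 45.5 CPM in immature LERKO libraries, against 48.3, 58.4, 54.4 and 40.6 CPM in immature control libraries. Both pairs overlapped, and neither knockout comparison passed, with log2 fold changes of 0.14 (SE 0.15, adjusted p = 0.848, edgeR) in mature and -0.17 (SE 0.15, adjusted p = 1, edgeR) in immature mice. The ratio of Ncoa2 to Ncoa1 counts was 2.86 ± 0.348 in mature LERKO, 2.86 ± 0.539 in mature control, 2.38 ± 0.467 in immature LERKO and 2.66 ± 0.427 in immature control livers (SD, n = 4 each). Between LERKO stages the log2 fold change of Ncoa2 was 0.29 (95% interval -0.02 to 0.60, adjusted p = 0.955, edgeR).

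Ncoa3 (ENSMUSG00000027678, chromosome 2 from 165992636 to 166073242, forward strand), also called SRC-3 or AIB1, was higher in every mature control library than in every immature control library. It held 27.6, 27.7, 33.7 and 28.5 CPM in mature controls, against 26.1, 25.7, 22.5 and 22.7 CPM in immature controls. The log2 difference was 0.28 (SE 0.15) and missed the threshold (adjusted p = 0.601, edgeR). The ratio of Ncoa3 to Ncoa1 counts, independent of scaling, was 1.70 ± 0.158 in mature and 1.28 ± 0.0928 in immature controls (SD, n = 4 each), with ranges of 1.58 to 1.93 and 1.18 to 1.39 that did not overlap. In LERKO livers the ratio was 1.45 ± 0.279 in mature and 1.36 ± 0.228 in immature mice (SD, n = 4 each), with overlap. Library 4 of mature LERKO held 18 CPM of Ncoa3, against 28.9, 30.7 and 35 CPM in the other libraries of its group, and the mature knockout log2 fold change was -0.06 with it and 0.13 without it. Ncoa3 shares 154 exonic bases with Sulf2 on the opposite strand. The libraries mark strand, but the sources used here do not say how the counting used it.

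Nrip1 (ENSMUSG00000048490, chromosome 16 from 76287400 to 76373827, reverse strand) held 22.8, 25.2, 24.1 and 14 CPM in mature LERKO libraries, against 16.2, 16.7, 16.6 and 17.2 CPM in mature control libraries. In immature mice it held 19, 16, 17.7 and 15.4 CPM in LERKO libraries, against 16.1, 16.2, 18.6 and 17.7 CPM in control libraries. In the mature stage, 3 LERKO libraries were above every control and library 4 was below every control, while the immature groups overlapped throughout. The log2 fold change was 0.37 (95% interval 0.07 to 0.67) in mature mice and did not pass (adjusted p = 0.614, edgeR), and it was -0.01 (-0.31 to 0.29) in immature mice (adjusted p = 1, edgeR). Without library 4 of mature LERKO, the one with most Saa1, the mature value was 0.56 and still did not pass (adjusted p = 0.121, the lowest of a range from 0.121 to 0.997 over the libraries left out, edgeR). The difference of the knockout values was 0.38 (SE 0.20, adjusted p = 0.774, edgeR), and 0.56 without that library. Between the LERKO stages Nrip1 stood at 0.34 (SE 0.14, adjusted p = 0.955, edgeR).

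**Figure D4:**
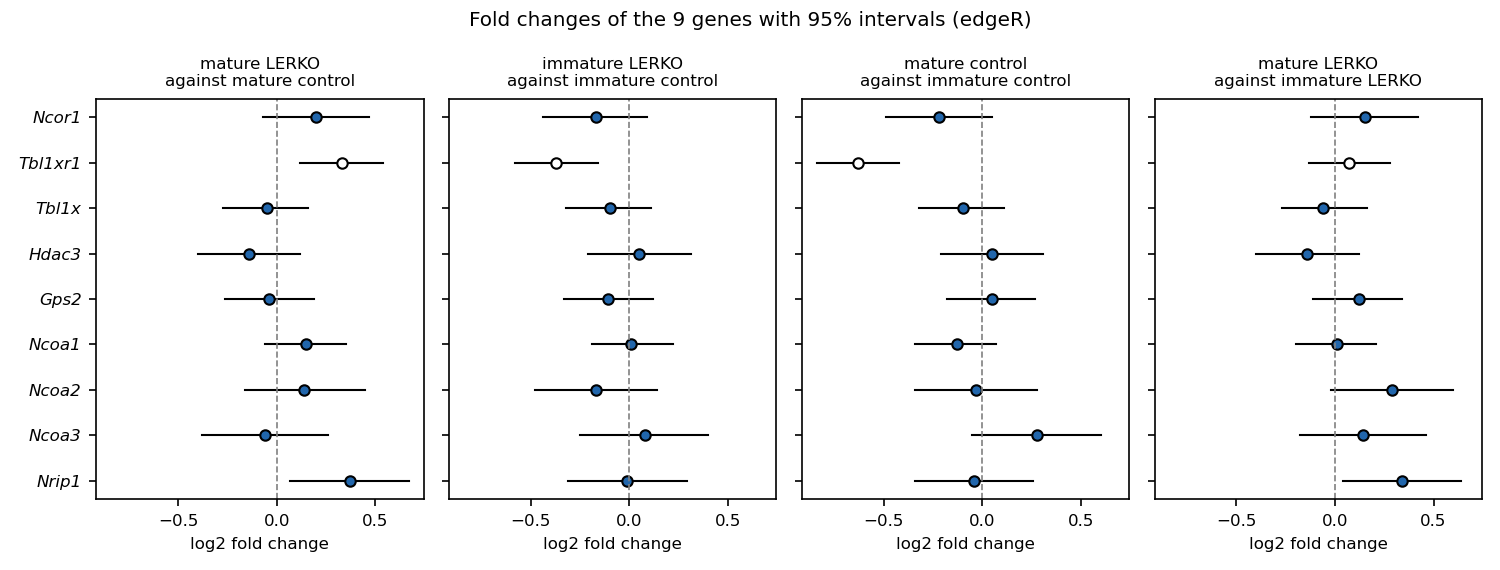
Log2 fold changes (x axis) of the 9 genes in 4 comparisons; points are edgeR estimates and lines their 95% intervals. The open points are Tbl1xr1, whose values were used in choosing the genes; among the other 8 genes the intervals that leave out 0 are those of Nrip1 in mature LERKO against mature control (0.07 to 0.67) and against immature LERKO (0.04 to 0.64).

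Counted together, 0 of the 9 genes passed in mature LERKO against mature control, where 0.00747% of all tested genes passed. Of the 8 genes other than Tbl1xr1, 1 had an unadjusted p below 0.05 there, Nrip1, where 7.3% of all genes did. In immature LERKO against immature control 0 of 9 passed, against 0.00747% of all genes, and 0 of these 8 had an unadjusted p below 0.05, against 2.76%. In mature against immature controls 0 of 9 passed, against 0% of all genes by edgeR (64 genes by DESeq2 and 8 by limma-voom). Of the 8, 0 had an unadjusted p below 0.05, against 9.84%. In mature against immature LERKO 0 of 9 passed, against 0% (6 genes by DESeq2, 0 by limma-voom), and 1 of the 8 had an unadjusted p below 0.05, Nrip1, against 4.93%. For the difference of the knockout effects 0 of 9 passed, against 0% (26 genes by DESeq2, 0 by limma-voom), and 0 of the 8 had an unadjusted p below 0.05, against 6.35%. DESeq2 and limma-voom called 0 members in the mature knockout, immature knockout and LERKO stage comparisons. Both called 1, Tbl1xr1, between control stages, and DESeq2 called it for the difference too. The choice of the genes used these contrasts for Tbl1xr1, so it is left out of the counts of unadjusted p and nothing is read from its calls.

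Groups did not overlap for 1 of 9 members in the mature knockout comparison (3.9% of all genes), for 1 in the immature one (1.63%), for 3 between control stages (8.86%) and for 0 between LERKO stages (1.52%). The first 2 counts are Tbl1xr1 alone, and the 3 between control stages are Tbl1xr1, Ncoa1 and Ncoa3. Tbl1xr1 was chosen for these contrasts, so nothing is read from its part in these counts. For the 8 members other than Tbl1xr1, the 95% intervals of the fold change ran from 0.757-fold to 1.59-fold over the mature knockout comparison and from 0.717-fold to 1.32-fold over the immature one. They ran from 0.712-fold to 1.52-fold between control stages and from 0.757-fold to 1.56-fold between LERKO stages. Larger differences lie outside these intervals. The median log2 fold change of these 8 genes was 0.05 in the mature and -0.06 in the immature knockout comparison, beside medians of -0.01 and 0.01 over all tested genes. With Tbl1xr1, which was chosen for these contrasts, the medians were 0.14 and -0.10.

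Within mature LERKO livers 1 library set much of the spread. Library 4 was the lowest of its group for 6 of the 9 members (Ncor1, Tbl1xr1, Tbl1x, Ncoa1, Ncoa3 and Nrip1) and the highest for Hdac3. Library 2 was the highest for 5 (Ncor1, Tbl1xr1, Gps2, Ncoa2 and Nrip1). How many of all tested genes had their extremes in these libraries was not counted. The counts are therefore not read as particular to the members. The coefficient of variation was 19.7% for Ncor1, 25.7% for Ncoa3 and 23.8% for Nrip1 in mature LERKO, against 6.53%, 9.86% and 2.38% in mature control livers. For Ncoa2 and Tbl1x it was lower in mature LERKO, at 9.94% and 9.74%, against 18% and 10.4% in mature control livers. Each coefficient rests on 4 libraries. The 2.38% of Nrip1 comes from 319 to 408 counts per library, so a value this small is uncertain.

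Genes that work beside these 9 were taken from lists of known partners. Among 23 other corepressor genes 0 passed in any of the 5 comparisons by edgeR, DESeq2 or limma-voom. An unadjusted p below 0.05 was reached by 2 of the 23 in the mature and 0 in the immature knockout comparison, where 7.3% and 2.76% of all genes had one. It was reached by 0 between control stages (9.84% of all genes), 3 between LERKO stages (4.93%) and 1 for the difference of effects (6.35%). The median log2 fold changes lay between -0.05 and 0.02. Phb2, a repressor of oestrogen receptor activity, and the remodeller Chd4 had the highest levels, at 181 ± 16.2 and 103 ± 9.1 CPM in mature LERKO and 201 ± 10.2 and 93.3 ± 13.8 CPM in mature control livers (SD, n = 4 each). The smallest p-values in mature LERKO against control were those of Nr0b2, the orphan receptor SHP that represses bile acid synthesis, and Lcor, a ligand-dependent corepressor. Nr0b2 stood at 25.1 ± 9.4 CPM in mature LERKO and 44.9 ± 18.1 CPM in mature control livers (SD, n = 4 each), or -0.84 on the log2 scale (SE 0.34, adjusted p = 0.645, edgeR). With single libraries left out this ran from -1.07 without mature LERKO library 1 to -0.54 without mature control library 2. Lcor stood at 13.9 ± 1.91 CPM in mature LERKO and 11.5 ± 0.985 CPM in mature control livers (SD, n = 4 each), or 0.27 on the log2 scale (SE 0.11, adjusted p = 0.645, edgeR). In immature LERKO against control they were Safb (0.11) and Zbtb33, also called Kaiso (-0.15), both with an adjusted p of 1 (edgeR). Between control stages they were Ctbp2 (0.59, adjusted p = 0.585, edgeR) and Hdac2 (-0.16, adjusted p = 0.705, edgeR). Between LERKO stages they were the histone demethylase Kdm5b (0.43, adjusted p = 0.951, edgeR) and Nr0b2 (-0.81, adjusted p = 0.955, edgeR), and for the difference of knockout effects Kdm5b (0.44, SE 0.19, adjusted p = 0.773, edgeR) and Nr0b2 (-0.65, SE 0.48), neither of which passed.

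Among 30 other coactivator genes 0 passed in any of the 5 comparisons by edgeR, DESeq2 or limma-voom. An unadjusted p below 0.05 was reached by 1 of the 30 in the mature and 0 in the immature knockout comparison (7.3% and 2.76% of all genes), 1 between control stages (9.84%), 3 between LERKO stages (4.93%) and 2 for the difference of effects (6.35%). The medians lay between -0.02 and 0.07. The RNA helicases Ddx5 and Ddx17, which also bind oestrogen receptor alpha, had the highest levels, at 338 ± 24.4 and 101 ± 13.5 CPM in mature LERKO and 339 ± 46.2 and 92.3 ± 24.1 CPM in mature control livers (SD, n = 4 each). Ncoa6, a coactivator that anchors a histone methyltransferase complex, had the smallest p of the list in mature LERKO. It held 28.9, 36.1, 32.3 and 33.7 CPM in mature LERKO libraries, against 23.1, 23.2, 27.4 and 27 CPM in mature control libraries, and the groups did not overlap. It held 27.5, 26.9, 24 and 28.8 CPM in immature LERKO libraries, against 27.5, 27.9, 27 and 26.3 CPM in immature control libraries, where they did. Its log2 fold change in mature mice was 0.38 (SE 0.09) and did not pass (adjusted p = 0.481, edgeR), nor did the difference of knockout effects, 0.40 (SE 0.13, adjusted p = 0.716, edgeR), or that between LERKO stages, 0.29 (SE 0.09, adjusted p = 0.951, edgeR). By DESeq2 the mature value lay just above the threshold (adjusted p = 0.0503). Without the 3 libraries with most muscle transcripts the mature value was 0.27 by edgeR. In the other direction, mature LERKO had Ppargc1b at -0.38 (adjusted p = 0.723, edgeR), and between LERKO stages Ppargc1a, the inducible coactivator of gluconeogenesis and mitochondrial genes, stood at -0.56 (SE 0.19, adjusted p = 0.955, edgeR). For the difference of effects Ppargc1a stood at -0.48 (adjusted p = 0.776, edgeR). In immature LERKO against control Med24 stood at 0.34 and Ascc3 at -0.16, both with an adjusted p of 1 (edgeR), and between control stages Ppargc1b at 0.41 and Ascc3 at -0.22, with adjusted p-values of 0.591 and 0.488 (edgeR).

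Of 26 nuclear receptors 25 were tested, and Esr1 alone passed by edgeR, DESeq2 and limma-voom, lower in both knockout comparisons (log2 fold change -2.33, SE 0.19, adjusted p = 1.57e-05 in mature and -2.50, SE 0.19, adjusted p = 6.55e-06 in immature mice, edgeR). Apart from Esr1, an unadjusted p below 0.05 was reached by 0 receptors in the mature or immature knockout comparison, where 7.3% and 2.76% of all genes had one. It was reached by 1 in each of the control stage, LERKO stage and difference comparisons, where 9.84%, 4.93% and 6.35% of all genes had one. The medians of the list lay between -0.07 and 0.10. Hnf4a, which maintains hepatocyte identity, and Rxra, the common heterodimer partner, had the highest levels. Hnf4a stood at 929 ± 163 CPM in mature LERKO, 798 ± 126 CPM in mature control, 797 ± 97.5 CPM in immature LERKO and 979 ± 185 CPM in immature control livers, and Rxra at 537 ± 51.3, 508 ± 32.3, 499 ± 72.8 and 568 ± 65.6 CPM (SD, n = 4 each). For Hnf4a the difference of knockout effects was 0.52 (SE 0.24, adjusted p = 0.773, edgeR) and the control stage value -0.29 (adjusted p = 0.618, edgeR), neither of which passed. Thra stood at -0.28 for the difference (adjusted p = 0.845, edgeR). Between LERKO stages Nr1i3, the constitutive androstane receptor, stood at -0.40 (adjusted p = 0.955, edgeR).

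By pattern across the 16 libraries, the genes most like Tbl1xr1 among 8088 of at least moderate level (average log2 CPM of 3 or more) were Acadvl, Acsf2 and Cyp2d26. Likeness was measured as the Pearson coefficient of log2 CPM, 0.836 for Acadvl, 0.814 for Acsf2 and 0.808 for Cyp2d26, and these were picked as the highest, so that no p-value is given. The libraries share their groups and their scaling. Members were left out of the search, and among them Ncor1 had the highest coefficient with Tbl1xr1, 0.62. Acadvl, which starts mitochondrial oxidation of long-chain fatty acids, stood at 389 ± 44.4 CPM in mature LERKO, 365 ± 23.8 CPM in mature control, 418 ± 39 CPM in immature LERKO and 488 ± 85.9 CPM in immature control livers. Acsf2, an acyl-CoA synthetase, stood at 149 ± 19, 128 ± 13.7, 143 ± 29.5 and 184 ± 37.3 CPM, and the cytochrome P450 gene Cyp2d26 at 1080 ± 136, 1020 ± 90.3, 1150 ± 177 and 1340 ± 180 CPM in the same order (SD, n = 4 each). Acadvl, Acsf2 and Cyp2d26 each had the highest mean in immature control and the lowest in mature control livers, as Tbl1xr1 did, a match that picking by likeness favours. Between the LERKO groups, Acadvl and Cyp2d26 had the higher mean in immature livers, while Acsf2 and Tbl1xr1 had it in mature livers.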

How the data were processed

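Liver RNA of 16 mice was sequenced as paired-end mRNA libraries that mark strand, per the labels' protocols, in 4 groups of 4. The submitters' processing notes name mm10, STAR, limma and R 4.05, without saying what each was used for. The sources used here do not name the counting program, its annotation or its strand setting. The deposited table gives a count for each gene, with no visible normalization. As 10 values of 2 predicted genes were not whole, 5 of the deposited columns were treated as estimated counts and rounded.

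Genes were kept by filterByExpr (minimum count 10, total 15) and scaled by TMM. They were tested with edgeR 4.0.16 in R 4.3.3 (glmQLFit, glmQLFTest), 1 coefficient per group, with Benjamini-Hochberg adjustment over 13379 genes and a threshold of 0.05. The SE came from the fold change and its F statistic. P-values set the difference between groups against the spread between mice within groups, which was estimated in 1 fit over all 4 groups. The common biological coefficient of variation was 21.2%. Alternatives used DESeq2 1.42.0, limma-voom (limma 3.58.1), other scalings and filters, the compared groups alone and libraries left out. The fit was tested on simulated counts.

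The members and the partner lists were chosen with earlier results of these data known. Partner genes named are those past the threshold, otherwise the smallest p in each direction (average log2 CPM 0 or more), and the 2 highest levels of a list. A partner gene that this rule also names is not reported here. Genes like Tbl1xr1 are the 3 with the highest coefficient. Positions are from GENCODE vM21 (GRCm38, which mm10 names), matched for 35465 of 35502 identifiers. Upstream sequences are from RefSeq, which had an entry for 6 of the 9 members.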

Additional observations from a re-analysis of the deposited data

Results flagged for a closer look

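Among 36 sets of 4 libraries (9 genes in 4 groups), 2 held a library far from the others, a gap chance gives in about 1 set of 20. Ncoa2 stood at 62.8 CPM in library 2 of mature LERKO, with the other 3 at 51.2 to 52.3 CPM. Ncoa3 stood at 33.7 CPM in library 3 of mature control, with the other 3 at 27.6 to 28.5 CPM. For Tbl1xr1 every mature LERKO library was above every mature control library and every immature LERKO library below every immature control library, a difference of knockout effects of 0.70 on the log2 scale. This pattern helped to choose the genes, so the difference is a description and nothing is read from tests of it.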

How the results depend on the processing

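With edgeR, 0 members passed in any comparison under any scaling, filter, subset of groups or library left out. DESeq2 and limma-voom with sample quality weights each called 1 member between control stages, and DESeq2 called 1 for the difference of knockout effects; each time it was Tbl1xr1. The cause was not tested. With library size alone the mature control level was 17.8 CPM for Ncoa1 and 17.2 CPM for Nrip1, a change above their SD. The paralogue ratios moved by less than their SD without any library.

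Directions turned for fold changes that had not passed, between -0.14 and 0.14 for members, and for Thra (-0.28). With library size alone the log2 values were 0.05 for Nrip1 in the immature knockout, 0.05 for Ncoa2 and 0.04 for Nrip1 between control stages, -0.03 for Ncoa1 between LERKO stages, and -0.07 for Tbl1x and -0.05 for Gps2 for the difference of effects. Ncoa1 between LERKO stages was -0.01 with RLE factors and -0.01 with DESeq2, and Nrip1 in the immature knockout was 0 with a filter of 1 CPM in 4 libraries. Without the 3 libraries with most muscle transcripts they were -0.01 for Ncoa2 in the mature knockout, -0.02 for Ncoa1 and 0.04 for Nrip1 in the immature knockout, -0.08 for Hdac3 and 0.12 for Ncoa2 between control stages, and 0.08 for Thra for the difference.

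With single libraries left out, the turning values ran as follows. In the mature knockout they ran from -0.08 to 0.03 for Gps2, -0.17 to 0.13 for Ncoa3 and -0.12 to 0.04 for Tbl1x. In the immature knockout they ran from -0.01 to 0.09 for Hdac3, -0.08 to 0.07 for Ncoa1 and -0.07 to 0.03 for Nrip1. Between control stages they ran from 0 to 0.07 for Gps2, -0.01 to 0.10 for Hdac3 and -0.12 to 0.08 for Ncoa2, and between LERKO stages from -0.05 to 0.09 for Ncoa1 and -0.12 to 0.01 for Tbl1x. For the difference they ran from -0.03 to 0.13 for Gps2, -0.25 to 0.04 for Ncoa3 and -0.02 to 0.13 for Tbl1x. No paired analysis was possible because the labels give no replicate numbers shared between groups.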
